A study of Rattus norvegicus with 18 samples.

Results

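The miRNAs described here are those encoded within myosin heavy chain genes, miR-208a, miR-208b and miR-499. They were found by name in a small RNA count table of rat gastrocnemius muscle, the large calf muscle, taking either arm of each hairpin. The name gave 6 of the 909 entries of the table, which holds 763 known miRNAs and 146 predicted candidates. There were 18 libraries, 1 per rat, from male Brown Norway rats of substrain BN/SsNOlaHSD. The young AL group (replicates 1 to 6) was 6 months old and fed ad libitum, and the old AL group (replicates 7 to 12) was 28 months old and fed ad libitum. The old CR group (replicates 13 to 18) was also 28 months old and had been on caloric restriction since 2 months of age, with 55% of the ad libitum intake. All groups had free access to food up to that age, and no young group on CR is analysed here, so an effect of CR at 6 months is not seen. A library held 34940346 to 83110905 counts. Of these, the miR-1 family took 60.7 to 86.8%. This share counts miR-1-3p, miR-1-5p, miR-1b, miR-3571 and the predicted candidates with nearly the same counts as one of them.

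A miRNA is cut from a hairpin as a duplex of a 5p and a 3p arm, of which usually only one is loaded and kept, and bases 2 to 8 of the kept arm, the seed, pair with target mRNAs. The miR-208 and miR-499 hairpins lie within myosin genes and are held to be transcribed together with the gene they sit in. Myh6 encodes the fast cardiac alpha myosin, Myh7 the slow beta myosin of heart and slow-twitch skeletal fibres, and Myh7b a further slow-type myosin. In work on mice, miR-208b and miR-499 have been placed in the programme that keeps slow fibres slow and are held to be enriched in slow muscle, whereas miR-208a is held to be specific to heart. Gastrocnemius of the rat is a mixed and mostly fast muscle. The table holds no mRNA, so the myosins themselves and the fibre types of each sample were not measured, and the link to slow fibres is background here.

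In the RefSeq annotation of the rat assembly GRCr8, Mir208a lies inside Myh6 and Mir208b inside Myh7, on the same strand as the host, on chromosome 15. Mir499a lies inside Myh7b on chromosome 3, also on the same strand. Both Mir208a and Mir208b also overlap an uncharacterised gene on the opposite strand. The deposited counts were made on another assembly, Rnor_6.0, and positions are not given for that reason. The abundant arm of each hairpin is shown first, with its seed in capitals, because the seeds show which of the 3 are related.
rno-miR-208a-3p: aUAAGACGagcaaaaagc
rno-miR-208b-3p: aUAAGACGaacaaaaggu
rno-miR-499-5p: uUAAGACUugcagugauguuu

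The 2 miR-208 sequences were identical at 15 of the 18 bases held by RefSeq and differed by G10A, A16G and C18U, where the base of miR-208a-3p stands first and positions count from the 5′ end. These 3 differences are what separates a read of one from a read of the other, and none lies in the seed, which is UAAGACG in both. The seed of miR-499-5p differed from theirs only at its last base (G8U), so that all 3 miRNAs share UAAGAC at bases 2 to 7. Of the 693 mature rat miRNAs in the RefSeq table, these 3 alone have UAAGAC at that place. The opposite arms are shown because they measure how strictly one arm was kept.
rno-miR-208a-5p: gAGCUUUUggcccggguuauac
rno-miR-208b-5p: aAGCUUUUugcucgcguuau
rno-miR-499-3p: aACAUCACagcaagucugugcu

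The opposite arms of the pair of miR-208 hairpins also share a seed with each other, AGCUUUU, which no other mature rat miRNA in that table has. The seed of miR-499-3p was found in no other.

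The 3 myosin genes contributed very unequally. Levels are given as CPM, the count of an entry relative to the total of its library, after TMM scaling, which adjusts each library for its composition. miR-499-5p, from Myh7b, had a mean of 282 CPM over the 18 libraries and was the 56th most abundant of the 763 known miRNAs. miR-208b-3p, from Myh7, had a mean of 10.7 CPM and was the 169th. These 2 did not overlap, since the lowest library of miR-499-5p (105 CPM) lay above the highest of miR-208b-3p (60.3 CPM). Counts of different miRNAs also depend on how well each sequence is ligated and amplified, so a difference in level between 2 miRNAs is a difference in counts and not a count of molecules.

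miR-208a-3p, the heart-type member, was almost absent. It had 8 counts in all 18 libraries together, spread over 5 libraries with at most 2 in any one, and miR-208a-5p had none. A count of 0 in a library allows up to 3 counts, which is 0.0286 to 0.0898 CPM depending on its total and its TMM factor, and this limit covers counting error only. Together the 8 counts of miR-208a-3p came as 3 from young AL, 1 from old AL and 4 from old CR. miR-208a-3p made up 0.0661% of the counts of both miR-208 3p arms (8 of 12095, exact 95% interval 0.0286 to 0.130%). Because 3 bases separate the sequences, it was not tested how many of these 8 were misread miR-208b-3p.

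Processing was one-sided at both expressed hairpins. miR-499-3p had 79 counts against 345428 for miR-499-5p, or 0.0229% of both arms (exact 95% interval 0.0181 to 0.0285%). miR-208b-5p had 21 counts against 12087 for miR-208b-3p, or 0.173% (0.107 to 0.265%). The minor arm of miR-208b therefore took the larger share, although its 21 counts came from only 5 libraries. Of these, 7 were in young AL replicate 4, 8 in old AL replicate 7, 3 in old CR replicate 13, 2 in old CR replicate 18 and 1 in young AL replicate 2. miR-499-3p was counted in 15 libraries, with its highest count, 19, in old AL replicate 7. The 3 sparse arms overlapped each other in level, since miR-499-3p reached 0.206 CPM, miR-208b-5p 0.160 CPM and miR-208a-3p 0.0365 CPM, and each had libraries at 0.

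One predicted candidate belongs with these counts. Of the 146 candidates, 1 held between 96.2 and 97.9% of the count of miR-499-5p in every one of the 18 libraries, 334360 counts in total. How reads that fit more than one entry were counted is not stated, so the pair is treated as one signal and only miR-499-5p is described. The largest library totals exceed the mapped reads that the study lists for any sample. A read may therefore have been counted at more than one entry, and library totals and CPM rest on such counts. No entry stood in such a relation to miR-208b-3p.

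miR-208b-3p was highest on average in young AL. In young AL it lay between 5.08 and 60.3 CPM with a median of 7.85 (mean 16.9 ± 21.4, SD, n = 6). In old AL it lay between 1.75 and 30.5 CPM with a median of 4.44 (mean 8.24 ± 11.0, SD, n = 6), and in old CR between 2.41 and 16.1 CPM with a median of 5.76 (mean 7.04 ± 4.92, SD, n = 6). The 3 groups overlapped along most of their range, and the lowest library was old AL replicate 9. Young AL replicate 4 and old AL replicate 7 stood far above the rest of their groups. Old CR replicate 13 was the highest of its group by less, at 16.1 against 8.07 CPM for the next, and with library totals in place of TMM it had 10.6 against 9.17 CPM. Without these 3 libraries the means were 8.20 ± 3.12 CPM for young AL, 3.78 ± 1.89 CPM for old AL and 5.22 ± 2.34 CPM for old CR (SD, n = 5 each).

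miR-499-5p was spread in the same way. It lay between 123 and 689 CPM with a median of 225 in young AL (mean 289 ± 201, SD, n = 6). In old AL it lay between 116 and 1109 CPM with a median of 183 (mean 353 ± 383, SD, n = 6), and in old CR between 105 and 499 CPM with a median of 158 (mean 204 ± 149, SD, n = 6). Again the groups overlapped, and the same 3 rats were the highest of their groups. Without them the mean of young AL was 208 ± 50.1 CPM, that of old AL 202 ± 109 CPM and that of old CR 145 ± 38.5 CPM (SD, n = 5 each). The mean of old AL, the highest of the 3 groups, thus rested on replicate 7.

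**Figure D1:**
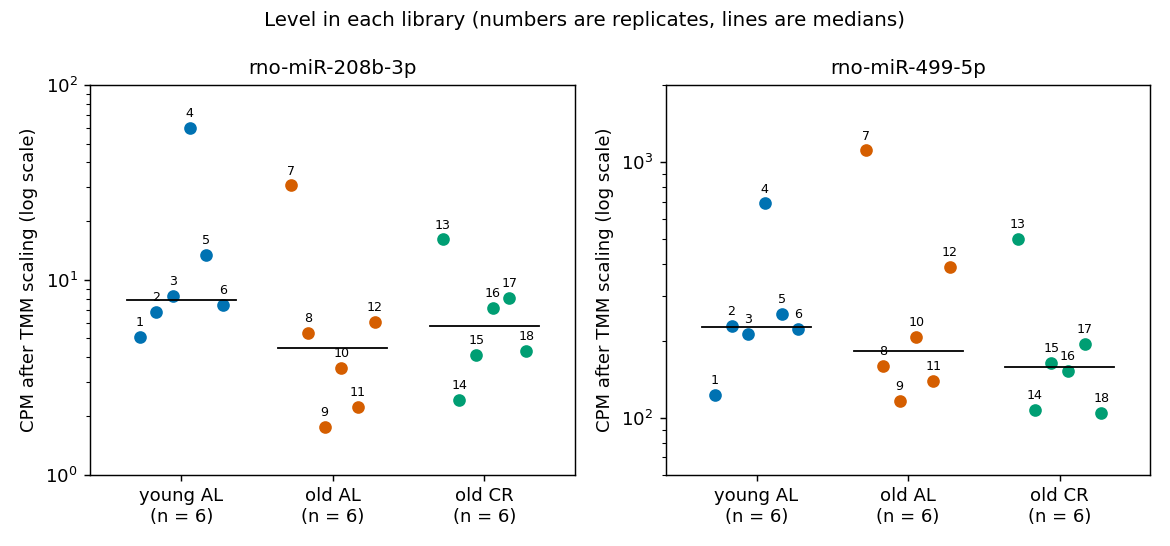
Level of miR-208b-3p and miR-499-5p in each of the 18 libraries, as CPM after TMM scaling on a log axis, by group (6 rats each); the numbers beside the points are replicates and the lines are medians. Replicates 4, 7 and 13 lie above the others of their group for both miRNAs, and the groups overlap.

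Whether age or CR changed these miRNAs was asked with the edgeR quasi-likelihood test over all entries with at least 10 counts. A call needed both an adjusted p no higher than 0.05 and a 1.5-fold change or more. Of the 6 entries, 4 had enough counts, namely both arms of miR-208b and both arms of miR-499. The other 2, the arms of miR-208a, could not be tested. The p-values set a difference between groups against the variation between libraries. With 1 library per rat, variation between rats and between library preparations is not separated.

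With age (old AL against young AL), 0 of the 4 members were called, against 3.28% of all 732 entries tested. An unadjusted p under 0.05 in edgeR was reached by 0 of the 4 (23.4% of all entries), a call in DESeq2 by 0 (11.5%), and in 0 did the rats of both groups fail to overlap (3.55%). miR-208b-3p was lower by a log2 fold change of -1.04 (SE 0.82, 95% interval -2.84 to 0.76, edgeR adjusted p = 0.491). miR-499-5p had a log2 fold change of 0.28 (SE 0.59, interval -0.998 to 1.56, edgeR adjusted p = 0.855). The intervals are wide enough to hold both no difference and a change of more than 2-fold in at least one direction. The minor arms, at -0.80 for miR-208b-5p and -0.12 for miR-499-3p, rested on few counts and had edgeR adjusted p of 0.821 and 0.971.

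The miR-208b-3p value moved with single rats. Without old AL replicate 7 the log2 fold change was -2.17, and without young AL replicate 4 it was -0.04, neither passing the test (lowest edgeR adjusted p 0.121 over the 12 libraries left out in turn). For miR-499-5p the value was -0.52 without old AL replicate 7 and 0.72 without young AL replicate 4, so that the direction with age turned with the choice of 1 rat. With both of these rats left out together, miR-208b-3p stood at -1.11 (SE 0.39, edgeR adjusted p = 0.160), close to the value from all rats, and miR-499-5p at -0.04. With library totals in place of TMM, miR-208b-3p stood at -0.35 and miR-499-5p at 0.86.

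In old CR against young AL, 0 of the 4 members were called, against 9.32% of 730 entries, again with 0 at an unadjusted p under 0.05 in edgeR (25.5% of entries) and 0 whose groups did not overlap (5.75%). All 4 had lower fitted values in old CR, with a median log2 fold change of -0.94 beside 0.08 over all entries tested. That median lies between the minor arms, at -0.93 for miR-208b-5p and -0.94 for miR-499-3p. Each rested on few counts, 8 in young AL against 5 in old CR for miR-208b-5p and 27 against 16 for miR-499-3p. Within young AL all 4 were highest in replicate 4, so they are not 4 separate observations. For miR-208b-3p the log2 fold change was -1.27 (SE 0.68, 95% interval -2.75 to 0.22), with an unadjusted p of 0.0874 and an adjusted p of 0.262 in edgeR. DESeq2 gave -1.30 with an unadjusted p of 0.039 and an adjusted p of 0.154, and called 0 of the members (14.9% of entries). For miR-499-5p the log2 fold change was -0.51 (SE 0.47, interval -1.53 to 0.52, edgeR adjusted p = 0.579). Without young AL replicate 4 the values were -0.22 for miR-208b-3p and -0.03 for miR-499-5p, and without old CR replicate 13 they were -1.69 and -0.998. With library totals they were -1.52 and -0.76. This comparison shares its young AL rats with the one before, so the lower miR-208b-3p of both old groups is set against the same 6 libraries.

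In old CR against old AL, which differ in diet at the same age, 0 of the 4 members were called, against 0.272% of 736 entries. edgeR gave 0 at an unadjusted p under 0.05 (12.0% of entries), DESeq2 called 0 (2.58%), and 0 had groups that did not overlap (0.543%). miR-208b-3p had a log2 fold change of -0.21 (SE 0.71, interval -1.77 to 1.35, edgeR adjusted p = 0.974), which became 0.90 without old AL replicate 7. miR-499-5p had a log2 fold change of -0.78 (SE 0.61, interval -2.13 to 0.56, edgeR adjusted p = 0.646), which became 0.01 without that library. With library totals in place of TMM the values were -1.17 for miR-208b-3p and -1.62 for miR-499-5p, and neither passed the test (edgeR adjusted p = 0.673 and 0.571). The difference between diets was thus within the spread between rats for both miRNAs, with either scaling.

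**Figure D2:**
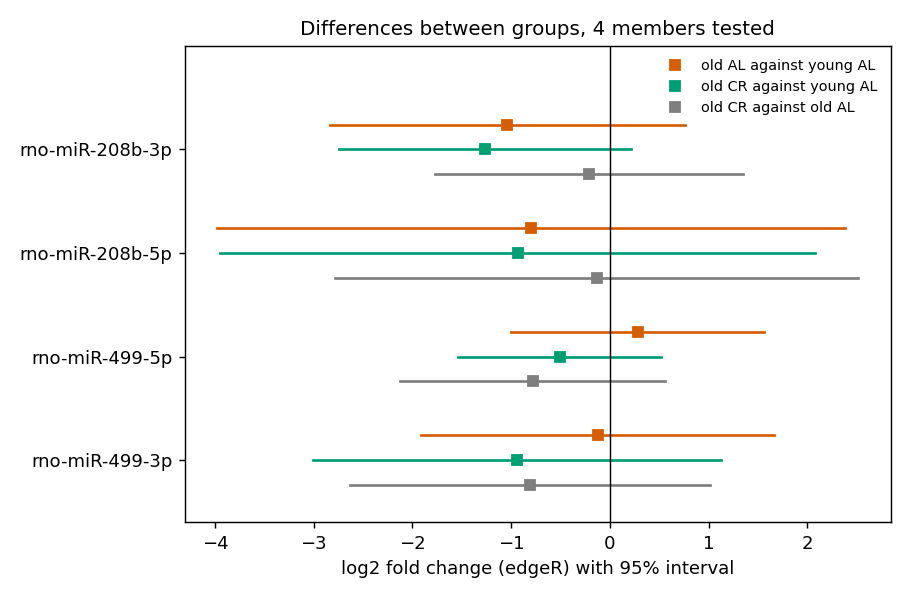
Log2 fold change of the 4 tested entries in each of the 3 comparisons from edgeR (squares) with its 95% interval (lines); the vertical line marks no difference. All 12 intervals cross that line, and in each comparison that of miR-208b-5p is the widest.

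Setting the 2 abundant members against each other removes the scaling between libraries, because both counts come from the same library. In young AL there were between 11.4 and 33.4 counts of miR-499-5p per count of miR-208b-3p (median 25.1). In old AL there were between 29.7 and 66.5 (median 60.7), and in old CR between 21.2 and 44.5 (median 27.6). In old AL replicates 9 to 12 had 58.7 to 66.5 counts, above every library of the other groups, whereas replicates 7 and 8 had 36.3 and 29.7. Of the 6 old AL rats, 5 lay above all young AL rats.

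The mean log2 ratio was 4.50 ± 0.56 for young AL, 5.66 ± 0.50 for old AL and 4.89 ± 0.43 for old CR (SD, n = 6 each). It was higher in old AL than in young AL by 1.16, which is 2.23-fold (95% interval 1.41 to 3.61-fold). The exact permutation test gave p = 0.00649, two-sided, and an adjusted p of 0.0584 over the 9 ratio tests made, so the difference did not pass after adjustment. Leaving out any 1 rat kept it between 0.96 and 1.31, with exact p of 0.00216 to 0.0152, the lowest being the smallest that 11 rats allow. With young AL replicate 4 and old AL replicate 7 left out together the difference was 1.06 (exact permutation p = 0.0238).

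Old CR lay nearer to young AL. The ratio was 1.31-fold that of young AL (95% interval 0.845 to 2.08-fold, exact permutation p = 0.212, adjusted 0.636). Against old AL it was 0.585-fold (interval 0.375 to 0.887-fold), and 4 of the 6 old AL rats lay above all old CR rats. The exact permutation p was 0.0238 and the adjusted p 0.107, which is past the threshold only before adjustment. All 3 comparisons use the same 18 libraries, so the position of old CR between the other groups is one observation, not a second one.

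**Figure D3:**
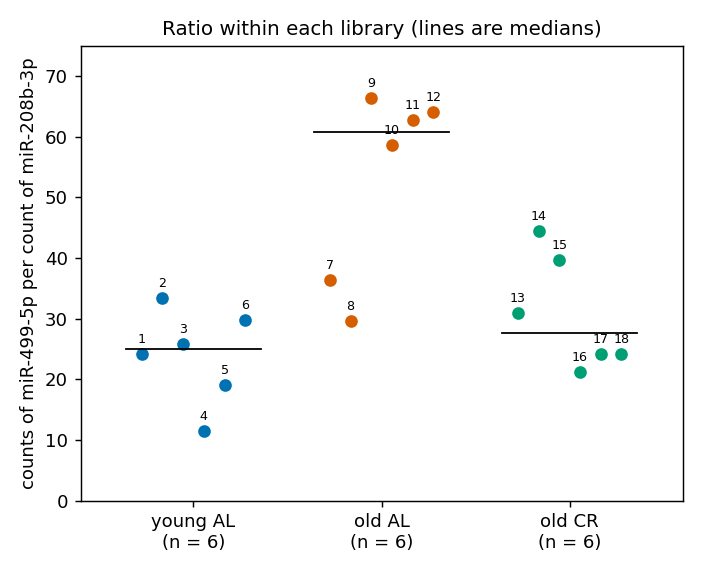
Counts of miR-499-5p per count of miR-208b-3p within each library, by group (6 rats each); numbers are replicates and lines are medians. The 4 old AL replicates 9 to 12 lie at 58.7 to 66.5, above all libraries of young AL and old CR.

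No difference passed in the other within-library shares. The share of miR-499-3p among both miR-499 arms had exact permutation p of 0.652, 0.961 and 0.630 in the comparisons of old AL with young AL, old CR with young AL and old CR with old AL. The share of miR-208a-3p among the miR-208 3p arms had exact permutation p of 0.727, 0.455 and 0.455. These shares rest on 79 and 8 counts of the rarer miRNA, and how large a difference could have been seen was not tested.

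Rats rich in miR-208b-3p were rich in miR-499-5p. Over the 18 libraries, with group means subtracted, log2 CPM of the pair had r = 0.932 (permutation p = 1e-05, the smallest that 100000 resamples can give, adjusted 8e-05 over 8 tests) and rho = 0.829 (permutation p = 0.00014, adjusted 0.00056). Without old AL replicate 7 and young AL replicate 4, the libraries farthest from the median of miR-208b-3p, r was 0.858. Within groups r was 0.961 for young AL, 0.949 for old AL and 0.892 for old CR, with exact permutation p of 0.00833, 0.00694 and 0.0181 (n = 6 each, adjusted 0.0167, 0.0167 and 0.0241).

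The rank correlations within groups were lower, at 0.771 for young AL, 0.943 for old AL and 0.714 for old CR (exact permutation p of 0.103, 0.0167 and 0.136). Leaving out the 2 farthest libraries of each group took r to 0.893, 0.673 and 0.613, and rho in young AL to 0.2. In old AL and old CR these were the rats with the most and the least miR-208b-3p, and in young AL replicates 4 and 5. Within a single group the relation therefore rests in part on the rats farthest from the median of miR-208b-3p. With the highest rat of every group left out, the relation over the remaining 15 libraries was r = 0.763 (permutation p = 0.00322). The pair shares its library and its scaling factor, and with library totals in place of TMM r was 0.957.

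**Figure D4:**
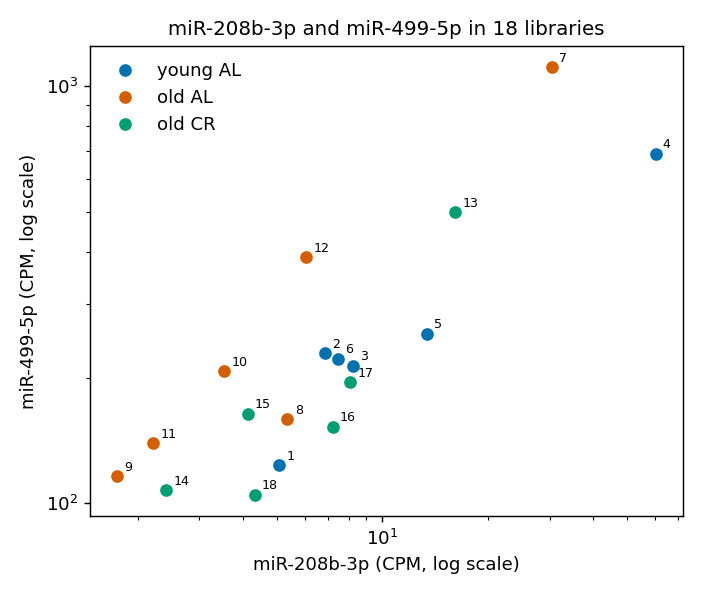
miR-208b-3p against miR-499-5p in 18 libraries, both as CPM after TMM scaling on log axes, coloured by group; numbers are replicates. Replicates 4, 7 and 13 stand at the upper right, and old AL replicate 12 lies above the young AL rats of like miR-208b-3p level.

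The rats with the highest level in each group were also compared in other miRNAs. miR-206-3p, a miRNA of skeletal muscle that is enriched in slow muscle and in regenerating fibres, was also the highest of its group in each of them, at 13765 CPM in young AL replicate 4, 17986 in old AL replicate 7 and 15168 in old CR replicate 13. The next highest rat of each group had 10013, 8489 and 8498 CPM. With library totals in place of TMM, old CR replicate 13 hardly stood out for miR-206-3p (9991 against 9885 CPM). Relative to the median of the other rats of the group, miR-206-3p was 2.00, 2.61 and 2.93 times as high, miR-499-5p 3.11, 6.97 and 3.27 times and miR-208b-3p 8.08, 8.64 and 3.74 times. The order of these rats in a wider list of muscle miRNAs depended on the scaling. After TMM the summed skeletal muscle list (miR-1, miR-133a, miR-133b and miR-206, without miR-1b) was the highest of all 18 libraries in old CR replicate 13 (187780 CPM) and the lowest in old AL replicate 7 (69681 CPM). With library totals old AL replicate 7 was the highest (149091 CPM) and old CR replicate 13 was in 6th place (123682 CPM). Young AL replicate 4 was the highest of young AL with either scaling (130427 CPM after TMM, 139902 CPM with library totals). Old AL replicate 7 was also the library with the lowest share of the miR-1 family and its candidates (60.7%) and the largest TMM factor (2.14). As CPM of its library total, without TMM, it had 2373 CPM of miR-499-5p and 65.3 CPM of miR-208b-3p, against at most 290 and 7.33 CPM in the other old AL rats. Whether these rats had more slow fibre, a different piece of the muscle or more RNA of this kind per fibre was not tested, and in bulk tissue more cells of a type and more RNA per cell cannot be told apart.

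**Figure D5:**
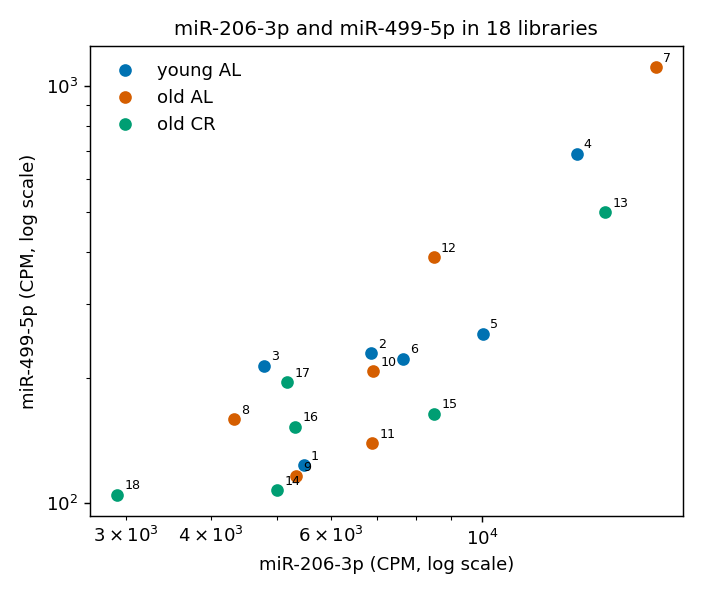
miR-206-3p against miR-499-5p in 18 libraries, both as CPM after TMM scaling on log axes, coloured by group; numbers are replicates. Replicates 7, 4 and 13 have the most of both, and old CR replicate 18 the least.

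A search among the 319 known miRNAs with a mean of at least 1 CPM gave the miRNAs whose levels ran most alike over the 18 libraries. These rho values are a description, with libraries and scaling shared. For miR-499-5p they were miR-24-3p (rho 0.812), miR-206-3p (0.767), miR-128-3p (0.645), miR-24-2-5p (0.643) and miR-3074 (0.577). For miR-208b-3p they were miR-24-2-5p (0.868), miR-3074 (0.831), miR-24-3p (0.812), miR-24-1-5p (0.769) and miR-27a-3p (0.750), beside 0.802 for miR-499-5p itself. Members of the miR-24 family, widely expressed miRNAs encoded beside miR-23 and miR-27, thus appeared in both lists. The entries miR-24-1-5p and miR-3074 had nearly the same counts (97.5 to 113% of one another) and cannot be told apart as separate signals.

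Of these neighbours, miR-24-1-5p and miR-3074 were downregulated in old AL against young AL, with log2 fold changes of -0.73 and -0.69 (edgeR adjusted p = 0.0376 and 0.0471), although no entry was called there when library totals replaced TMM. None of the others was called in that comparison. miR-128-3p, also abundant in nerve, stood at -0.56 (edgeR adjusted p = 0.127), miR-24-2-5p at -0.63 (0.203) and miR-24-3p at -0.20 (0.415).

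The other miRNAs of striated muscle also gave no calls. The list of miR-1, miR-133, miR-206 and miR-486 holds 11 entries, of which 10 could be tested. In the 3 comparisons, in the order used above, edgeR called 0 (3.28, 9.32 and 0.272% of all entries). DESeq2 also called 0 (11.5, 14.9 and 2.58%). An unadjusted p under 0.05 in edgeR was reached by 0 (23.4, 25.5 and 12.0%). In DESeq2 miR-486 had an unadjusted p of 0.0378 in old AL against young AL (adjusted 0.158). The median log2 fold change of the 10 entries was 0.15 in old AL against young AL, 0.19 in old CR against young AL and 0.01 in old CR against old AL, beside 0.06, 0.08 and 0.01 over all entries tested. miR-1-3p and miR-133a-3p, which act in muscle differentiation and growth, stood at -0.21 and 0.12 with age (edgeR adjusted p = 0.735 and 0.873). miR-206-3p stood at 0.04 with age (0.971). miR-486, a muscle and red cell miRNA that acts on the Akt pathway, had the value farthest from 0 with age, at 0.62 (0.249). miR-133c followed miR-133a-3p to within 1.43% in every library and is the same signal.

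Set against these miRNAs within each library, the members passed no test after adjustment. Ratios of miR-208b-3p and of miR-499-5p to miR-1-3p, miR-133a-3p and miR-206-3p were added after seeing the data. They gave 18 exact permutation tests, with adjusted p of 0.57 or more over these 18. The lowest unadjusted exact permutation p, 0.0541, belonged to miR-208b-3p over miR-206-3p, with a log2 difference of -1.14 between old AL and young AL. miR-499-5p over miR-206-3p differed by 0.02 in that comparison (exact permutation p = 0.935).

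The labelled tissue was checked with the muscle list, whose 8 entries summed to 69681 to 187780 CPM over all libraries after TMM. Markers of other cell types were present at lower levels, with no entry of their lists at 0 in all libraries. Nerve miRNAs (16 entries, 12 counted in every library) summed to 575 to 1033 CPM for young AL, 450 to 777 CPM for old AL and 455 to 758 CPM for old CR. Leukocyte miRNAs (8 entries) summed, in the same order of groups, to 125 to 172, 111 to 609 and 109 to 241 CPM, erythroid miRNAs (4 entries) to 3.31 to 10.1, 6.53 to 11.7 and 3.48 to 9.53 CPM. Endothelial miR-126a (2 entries) summed to 4548 to 8098, 3831 to 7247 and 3980 to 6834 CPM and the fibroblast list (4 entries) to 1016 to 1695, 1153 to 1628 and 1136 to 2276 CPM. Liver miR-122 (2 entries) summed to 0.570 to 38.7 CPM for young AL, 49.2 to 777 CPM for old AL and 102 to 187 CPM for old CR. In young AL replicate 4, old AL replicate 7 and old CR replicate 13, the rats highest in the myosin miRNAs, the miR-122 sums were 2.35, 230 and 187 CPM. The last was the highest of old CR. The group medians were 7.34, 195 and 149 CPM in the same order. The gap between young AL replicate 4 and old AL replicate 7 was thus like that between their groups. The nerve sums of these rats were 752, 777 and 758 CPM, the highest of old AL and of old CR but not of young AL. In the leukocyte, erythroid, endothelial and fibroblast lists none of these rats was the highest of its group. The part of these cells in the values of the myosin miRNAs was not tested.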

How the data were processed

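Small RNA libraries from gastrocnemius of 18 rats were made with a NEBNext kit and sequenced by the authors. The authors trimmed reads with Cutadapt (version 1.2.1 per the submitters' processing notes, which also name Bowtie2 2.4.0 and Rnor_6.0) and Sickle, found known and candidate miRNAs with miRDeep2 and deposited raw counts per entry, without normalization or pooling. The sources used here give neither the miRBase release nor how reads that fit several entries were handled. All columns were matched to a sample.

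Groups came from the sample titles, which give the age and mark CR, and the treatment field of the labels gives ad libitum feeding for the other groups. Library totals were 34940346 to 83110905 counts. PCR copies were not marked, so intervals and the limit of 3 counts behind a 0 cover only the error of counting. Counts were compared with edgeR 4.0.16 in R 4.3.3 (TMM, robust quasi-likelihood test, a separate fit for each comparison of 12 libraries, at least 10 counts in total, Benjamini-Hochberg adjustment over all entries tested). The study's own tool, DESeq2 1.42.0, was an alternative. CPM were scaled by TMM over all 18 libraries, with 0.5 counts added for log2. Within-library ratios used exact permutation tests (924 arrangements of 6 against 6, two-sided), and their intervals hold the shifts that this test does not reject. Correlations used all 720 pairings of 6 libraries, or 100000 resamples within groups. The edgeR procedure was also tested on simulated data.

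Alternatives covered the scaling, the filter, the tool, the fit, the calling rule and leaving out libraries. The members and lists were chosen with earlier results of these data known. The miRNAs named are all entries of miR-208a, miR-208b and miR-499, the list of other striated muscle miRNAs, candidates within 10% or 2 counts of a member, and the 5 known miRNAs most alike to each abundant member. Young AL replicates 1 and 2 carry library numbers 19 and 20, apart from the run of 3 to 18 of the others. Mature sequences and host genes were matched by name in RefSeq (GRCr8), for all 6 entries.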

Additional observations from a re-analysis of the deposited data

Results flagged for a closer look

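A library was singled out in a group of 6 by the gap to its nearest other. That gap had to take up more of the group's range than Dixon's 95% critical value for 6 values allows. Chance meets this rule in about 1 group of 20 if values are normally distributed. It was applied to CPM without a log, and to sets with many values of 0, so the number of flags cannot be read against that rate. Of 18 sets of 6 libraries examined (4 entries, the ratio of miR-499-5p to miR-208b-3p and the miR-499-3p share, in 3 groups), 7 met this, all through the same 3 rats. Young AL replicate 4 stood apart for miR-208b-3p (60.3 CPM, next 13.4), miR-499-5p (689 CPM, next 255) and miR-208b-5p (0.16 CPM, next 0.0150). Old AL replicate 7 stood apart for miR-208b-3p (30.5 CPM, next 6.06), miR-499-5p (1110 CPM to 3 digits, next 388) and miR-208b-5p (0.0764 CPM, all others 0). Old CR replicate 13 stood apart for miR-499-5p (499 CPM, next 195). The miR-208b-5p values rest on 7 and 8 counts. In none of the groups did a rat stand apart in the ratio of miR-499-5p to miR-208b-3p.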

How the results depend on the processing

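No member was called by any alternative. The ratio of miR-499-5p to miR-208b-3p kept its direction in all comparisons and alternatives, with log2 differences of 0.96 to 1.31 (old AL against young AL), 0.19 to 0.50 (old CR against young AL) and -0.93 to -0.68 (old CR against old AL) when each library was left out. Calls over all entries moved more. In old AL against young AL there were 24, and 0 with library totals, 84 with DESeq2, 37 with filterByExpr, 38 in a single fit, 53 with known miRNAs only and 9 to 20 without 1 library. In old CR against young AL there were 68, and 109 with DESeq2, 39 with the highest library of both groups left out (chosen after seeing the data) and 45 to 67 without 1 library. In old CR against old AL there were 2, and 19 with DESeq2, 0 with upper-quartile factors, library totals, no robust estimation, known miRNAs only or the highest libraries left out, and 0 to 3 without 1 library. Apart from those with fewer samples or entries, the cause was not tested.

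Directions turned for values that were not called. With library totals, miR-499-3p was 0.29 with age. With the highest libraries left out, miR-499-5p was -0.039 with age and miR-208b-3p was 0.47 in old CR against old AL. By mean log2 CPM (the exact permutation test) these 2 were -0.0055 and 0.26. miR-206-3p with age was -0.0093 with filterByExpr, and -0.12 without the highest libraries or without library numbers 19 and 20. The miR-208a-3p share with age was 0.203 percentage points with 1 count added.

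Leaving out each library gave, with age, log2 fold changes of -2.17 to -0.04 (miR-208b-3p), -0.52 to 0.72 (miR-499-5p), -0.62 to 0.33 (miR-499-3p) and -0.35 to 0.23 (miR-206-3p), and shares of -0.0904 to 0.0158 (miR-208a-3p) and -0.00966 to 0.00152 percentage points (miR-499-3p). In old CR against young AL, miR-206-3p was -0.59 to 0.011 and the miR-499-3p share -0.00472 to 0.00678. In old CR against old AL, miR-208b-3p was -0.65 to 0.90, miR-208b-5p -1.14 to 0.10, miR-499-5p -1.28 to 0.013, miR-206-3p -0.62 to 0.13 and the miR-499-3p share -0.000471 to 0.0109.

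No paired analysis was possible because the groups share no replicate numbers. The labels name no batch. miR-208a and the minor arms had few counts, whereas miR-208b-3p and miR-499-5p were counted in every library and varied widely between rats. How far counting error or the spread between rats limited each comparison was not tested.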
